A study of Mus musculus with 12 samples.

Results

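The haemoglobin and red cell genes described here are the 2 adult alpha-globin genes Hba-a1 and Hba-a2, the 2 adult beta-globin genes Hbb-bs and Hbb-bt, the haem synthesis gene Alas2 and the red cell anion exchanger gene Slc4a1. They were chosen by gene name, and all 6 were found among the 55679 genes of the deposited table. Their values are given library by library, in the lung and the heart of the same mouse, for Adam19 wild-type (WT) and knockout (KO) mice.

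RNA was taken from the whole lung and whole heart of 6 male mice of the 129S6/SvEvTac strain, 3 WT and 3 KO, which gave 12 libraries, 3 for each tissue and genotype. Both genotypes were young adult and received no treatment in this experiment. KO mice carried the Adam19-tdTomato allele, in which exons 6 and 7 of the metalloprotease gene Adam19 were replaced in the germline, so that every cell type, red cell precursors included, lacked them. The mice were bled through the vena cava before the organs were removed and frozen. Whether the organs were rinsed, or globin RNA was depleted, is not given in the sources used here. Libraries from total RNA kept the strand, and Salmon estimated the reads of each transcript. They held 17674788 to 28043361 estimated counts in the lung and 18392292 to 35862932 in the heart, and the 7SL RNA gene Rn7s1 took 2.10% to 34.0% of the abundance in the lungs. Adam19 was between 9.12 and 10.27 in the 6 WT libraries and between 3.21 and 6.67 in the 6 KO libraries, on the log2 scale of the deposited gene values. This scale, log2 of 1 + the estimated count plus a constant for each library, is called normalized abundance.

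Haemoglobin is a tetramer of alpha-globin and beta-globin chains, each holding a haem group that binds oxygen. Mature mammalian red cells have no nucleus and make no new RNA, and the globin RNA of circulating blood is what is left from the precursors in the bone marrow, richest in the young red cells called reticulocytes. Lung and heart do not normally make red cells in adult mice, so that globin RNA in a whole organ is commonly taken as a sign of the blood it held. In bulk tissue, fewer red cells and less RNA per red cell cannot be told apart.

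On GRCm39 (GENCODE vM39), Hba-a1 (ENSMUSG00000069919.8) lies at chr11:32233186-32234504 and Hba-a2 (ENSMUSG00000069917.8) at chr11:32246168-32247320, both on the forward strand and 13.7 Mb from Adam19. Hbb-bs (ENSMUSG00000052305.7, chr7:103475730-103482989) and Hbb-bt (ENSMUSG00000073940.4, chr7:103461727-103465047) are neighbours on the reverse strand of chromosome 7. Alas2 (ENSMUSG00000025270.14) is X-linked, at chrX:149330371-149353634 on the forward strand, and Slc4a1 (ENSMUSG00000006574.16) lies at chr11:102239650-102257029 on the reverse strand, 56.2 Mb from Adam19. The alpha copies can hardly be told apart by reads. Their transcripts were identical over 647 aligned nucleotides but for 1 coding base (C577T, counted from the 5′ end of the Hba-a1 transcript, Hba-a1 base first). The beta copies were 92.8% identical over 641 nucleotides. Values of the alpha copies are therefore also given summed, and their division rests on few reads.

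Because these genes had parallel levels from mouse to mouse, the 250 bases before the start sites of those found in the RefSeq promoter table (GRCm38.p6) are shown. The windows are written 5′ to 3′ on the gene's strand, and each was located by an exact match in GRCm39. The alpha windows had 2 exact matches each, and the match nearest the start of the gene was taken. The start sites are those of the promoter table, not the outer ends of the GENCODE spans. The globin windows therefore lie inside the spans given above, and that of Alas2 overlaps the start of its span. Capitals mark short words looked for on both strands, which were the GATA words AGATAA or AGATAG or TGATAA or TGATAG, the CACCC words CCACCC and ACACCC, the CCAAT word, and the TATA words TATAAA and TATAAG. Words of the GATA and CACCC kinds are known as binding words of the erythroid factors GATA1 and KLF1, and CCAAT and TATA words as general promoter elements.
Hba-a1, chr11:32233422-32233671: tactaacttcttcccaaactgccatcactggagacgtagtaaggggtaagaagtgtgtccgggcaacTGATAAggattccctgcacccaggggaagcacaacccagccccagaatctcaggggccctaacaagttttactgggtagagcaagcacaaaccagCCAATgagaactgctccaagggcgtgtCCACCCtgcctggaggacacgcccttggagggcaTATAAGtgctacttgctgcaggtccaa
Hbb-bs, chr7:103477136-103477385: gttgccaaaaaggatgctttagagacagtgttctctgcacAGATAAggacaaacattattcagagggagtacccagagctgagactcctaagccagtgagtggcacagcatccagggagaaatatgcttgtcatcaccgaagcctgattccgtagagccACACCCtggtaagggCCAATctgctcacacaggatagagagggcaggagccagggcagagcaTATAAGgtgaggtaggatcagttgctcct
Hbb-bt, chr7:103463131-103463380: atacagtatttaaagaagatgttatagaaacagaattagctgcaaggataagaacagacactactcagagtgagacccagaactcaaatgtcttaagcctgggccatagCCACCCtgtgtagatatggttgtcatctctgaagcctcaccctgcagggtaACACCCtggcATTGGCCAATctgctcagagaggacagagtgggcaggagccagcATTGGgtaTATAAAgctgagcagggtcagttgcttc
Alas2, chrX:149330163-149330412: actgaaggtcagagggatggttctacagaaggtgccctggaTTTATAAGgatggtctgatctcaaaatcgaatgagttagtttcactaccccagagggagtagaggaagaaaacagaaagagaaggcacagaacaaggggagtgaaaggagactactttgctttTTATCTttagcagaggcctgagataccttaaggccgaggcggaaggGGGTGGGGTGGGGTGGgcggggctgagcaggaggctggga
The window of Hba-a2 (chr11:32246242-32246491) was identical to that of Hba-a1 over 247 bases, while those of Hbb-bs and Hbb-bt were 72.0% identical over 243. Hba-a1, Hba-a2 and Hbb-bs each held 1 word of each kind, with the TATA word 27, 30 and 29 bases before the start. Hbb-bt held 2 CACCC words, 3 CCAAT words, 2 of them side by side on opposite strands, a TATA word 28 bases before the start and none of the GATA words. Alas2 held 3 CACCC words, which overlap on the reverse strand, 1 GATA word, 2 overlapping TATA words 209 and 207 bases before the start and no CCAAT word. Of 32851 promoter windows of the same length, 26.5% held a GATA word, 37.6% a CACCC word, 33.8% a CCAAT word and 17.0% a TATA word, so a match describes the sequence and shows no binding.

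Of the 6 genes, Hbb-bs was the most abundant. This gene, the major beta chain gene of these libraries, had a normalized abundance of 14.19, 14.31 and 15.95 in the lungs of WT replicates 1, 2 and 3, while KO replicates 1, 2 and 3 had 16.35, 12.08 and 12.80. In the hearts of the same mice it was 13.42, 12.77 and 15.0 in WT and 14.65, 12.01 and 13.72 in KO. WT replicate 3 and KO replicate 1 were thus the highest of their genotype in both organs, and KO replicate 2 was the lowest mouse in both. The KO lungs lay on both sides of the WT lungs, 1 above all of them and 2 below. Hbb-bt, the second adult beta gene, was 10.54, 11.08 and 12.59 in WT lungs and 13.23, 8.85 and 9.51 in KO lungs. In the hearts it was 9.98, 9.44 and 11.69 in WT and 11.38, 8.49 and 10.31 in KO, with the same mice high and low. Hbb-bs gave 89.7% to 92.7% of the summed abundance of the beta pair in the 12 libraries. Its share hardly moved while the pair itself ranged from 12.13 to 16.51. Other beta genes of the strain were not analysed here, and the reference used by the authors is of another strain, so the split between beta genes holds for these 2 annotated genes only.

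The alpha-globin genes followed the same mice. Hba-a1 was 12.03, 12.16 and 13.41 in WT lungs and 14.46, 9.97 and 10.72 in KO lungs. In the hearts it was 11.50, 10.94 and 13.0 in WT and 12.67, 10.14 and 11.64 in KO. Again 1 KO lung stood above and 2 stood below every WT lung, whereas in the heart 1 KO library lay below the WT range and 2 within it. Hba-a2 was 12.56, 12.22 and 14.39 in WT lungs and 14.81, 10.59 and 10.51 in KO lungs, and 11.96, 11.02 and 13.55 in WT hearts and 13.17, 10.52 and 12.11 in KO hearts. The share of Hba-a1 in the alpha pair was between 33.6% and 53.6% in the lungs and between 40.5% and 48.6% in the hearts, which is how Salmon divided reads between near-identical copies. Summed, the alpha pair was 13.32, 13.19 and 14.98 in WT lungs, 15.65, 11.31 and 11.62 in KO lungs, 12.75, 11.98 and 14.30 in WT hearts and 13.94, 11.34 and 12.89 in KO hearts.

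**Figure D1:**
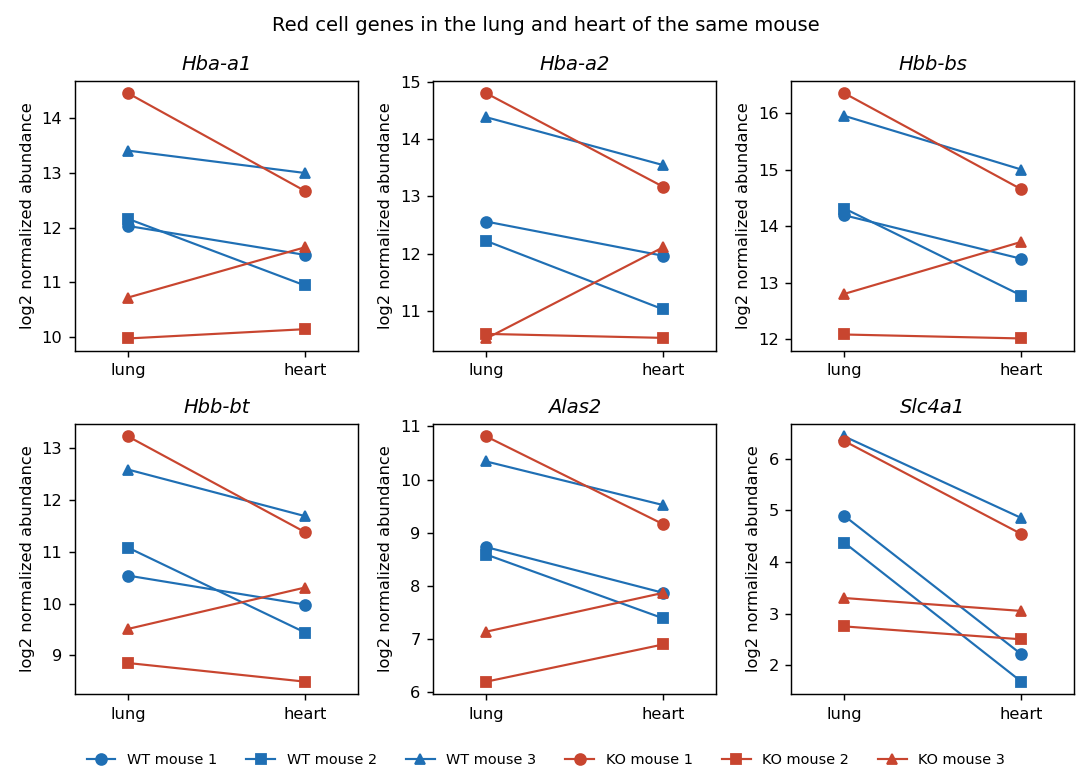
Normalized abundance (log2) of each of the 6 genes in the lung and heart of each mouse, with a line joining the 2 organs of 1 mouse, WT in blue and KO in red. For the 4 haemoglobin genes and Alas2, KO mouse 1 and WT mouse 3 are the top 2 in both organs, and KO mouse 2 is the lowest heart.

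Alas2 encodes the erythroid form of 5-aminolevulinate synthase, the first and rate-limiting enzyme of haem synthesis in red cell precursors. Its abundance was 8.73, 8.59 and 10.34 in WT lungs and 10.81, 6.20 and 7.14 in KO lungs, from 112.5 to 2087.8 estimated counts. In the hearts it was 7.87, 7.39 and 9.52 in WT and 9.16, 6.90 and 7.87 in KO, from 96.1 to 617.0 estimated counts. As for the haemoglobin genes, KO replicate 1 and WT replicate 3 were highest in both organs, and KO replicate 2 was lowest, as it was for all of them but Hba-a2 in the lung, where KO replicate 3 was lowest. Alas2 had 9.94 to 13.93 estimated counts for each 1000 of the 4 haemoglobin genes in the lungs and 10.44 to 16.79 in the hearts. This ratio spanned 1.69-fold over the 12 libraries, while Alas2 itself spanned 24.4-fold among the lungs and 6.1-fold among the hearts. The second annotated Alas2 transcript in abundance took between 0.0% and 37.3% of the gene's transcript counts, and the genotypes overlapped in each tissue.

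Slc4a1 encodes band 3, the chloride-bicarbonate exchanger and main integral protein of the red cell membrane. It was near the limit of these libraries, and the authors' table does not mark it as detected. In the lung it was 4.89, 4.37 and 6.43 in WT and 6.34, 2.75 and 3.30 in KO, from 7.1 to 104.6 estimated counts. In the heart it was 2.21, 1.68 and 4.85 in WT and 4.54, 2.5 and 3.05 in KO, from 0.9 to 24.1 estimated counts, and WT replicate 2 with 0.9 was below a floor of 3 counts. The same 2 mice were highest in both organs. In the hearts the ratio of Slc4a1 to the haemoglobin genes, 0.126 to 0.664 for each 1000 counts, rests on these few counts, against 0.554 to 0.936 in the lungs.

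Compared per kilobase of transcript (GENCODE vM39 lengths), the mean level in the lung was 14.87 for Hbb-bs, 13.14 for Hba-a2, 12.56 for Hba-a1, 11.47 for Hbb-bt, 7.61 for Alas2 and 2.76 for Slc4a1 on the log2 scale. In the heart the levels were 14.18, 12.68, 12.09, 10.72, 7.10 and 1.53 in the same order. Hbb-bs stood 1.41 to 2.26 above Hba-a2, Hba-a1 stood 0.75 to 1.59 above Hbb-bt, and Hbb-bt stood 3.10 to 4.17 above Alas2, in each of the 12 libraries. Hba-a2 stood above Hba-a1 in 11 of 12 libraries, with a difference of 0.59 ± 0.31 (SD, n = 12 libraries), and these neighbours are the copies that share reads. With coding length in place of transcript length the counts of libraries were the same. The alpha pair had 0.384 to 0.538 times the level of the beta pair per kilobase in the lungs and 0.505 to 0.566 times in the hearts. This ratio was lower in the lung in 6 of 6 mice, a difference that was not tested.

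Together the 4 haemoglobin genes took 0.114%, 0.127% and 0.463% of the summed abundance of the WT lung libraries and 0.718%, 0.0396% and 0.0501% of the KO lung libraries. In the hearts they took 0.0595%, 0.0333% and 0.178% in WT and 0.151%, 0.0208% and 0.0671% in KO. With Rn7s1 left out of the total, the range was 0.0410% to 0.802% in the lungs and 0.0218% to 0.187% in the hearts. Both the highest and the lowest lung were KO lungs, and in no organ were the genotypes separate.

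**Figure D2:**
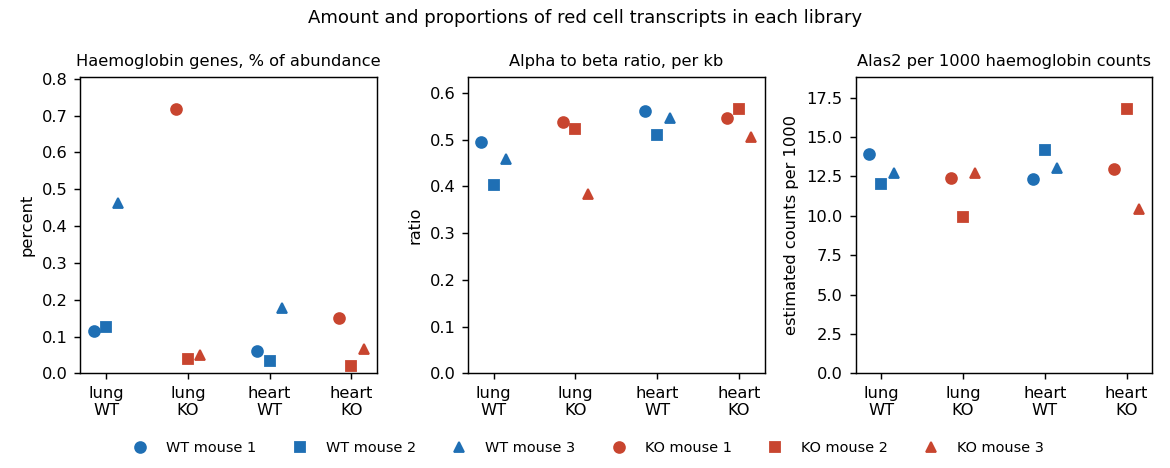
Share of the 4 haemoglobin genes in the summed abundance (percent), ratio of the alpha pair to the beta pair per kilobase of transcript, and estimated counts of Alas2 per 1000 counts of the haemoglobin genes, 1 point for each library, with WT in blue and KO in red. The share runs from 0.0208% to 0.718%, while the ratios stay between 0.384 and 0.566 and between 9.94 and 16.79.

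The first comparison asked whether the loss of Adam19 goes with a different content of red cell RNA in an organ. None of the 6 genes passed the thresholds in the lung (limma, 3 KO against 3 WT, adjusted p under 0.05, fold 1.5 or more, and 6 or more for the higher group mean), against a background of 11 of 16551 genes tested (0.0665%). None had an unadjusted p under 0.05, and limma-voom called none either. Slc4a1 could not be called in the lung at any p, since its higher group mean of 5.23 was under 6. Hbb-bs averaged 14.82 ± 0.98 in WT lungs and 13.74 ± 2.29 in KO lungs (SD, n = 3 each), a log2 fold change of −1.08 (standard error 0.985, 95% interval −3.32 to 1.17, adjusted p = 0.86 from limma). Alas2 averaged 9.22 ± 0.98 in WT lungs and 8.05 ± 2.43 in KO lungs (SD, n = 3 each), a log2 fold change of −1.17 (95% interval −3.53 to 1.19, adjusted p = 0.856 from limma). The 6 log2 fold changes ran from −1.17 to −0.82 with a median of −1.08, beside a median of 0.01 over all genes tested. These means hide the division of the KO lungs. Without KO replicate 1 the log2 fold changes of the 6 genes were between −2.55 and −2.19. Their adjusted p-values were then 0.519 to 0.963 from limma, and none was called, beside 0.0767% of all genes. The KO mice left in that fit share the first part of their identifiers, and genes that move together are not separate results. Without KO replicate 2, the log2 fold changes were between −0.41 and 0.06, with Hba-a1 at 0.06. They were between −0.61 and −0.28 without WT replicate 3, and between −0.72 and −0.32 without KO replicate 3.

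In the heart, 5 of the 6 genes could be tested, since Slc4a1 did not reach the filter, and none passed, against 13 of 15303 genes (0.085%). None had an unadjusted p under 0.05, and limma-voom called none. Hbb-bs averaged 13.73 ± 1.15 in WT hearts and 13.46 ± 1.34 in KO hearts (SD, n = 3 each), a log2 fold change of −0.27 (95% interval −1.85 to 1.3, adjusted p = 0.937 from limma). The 5 log2 fold changes ran from −0.33 to −0.24, beside a median of 0.032 over all genes, and their intervals reached from −1.99 to 1.41. The sign turned without KO replicate 2, where the values were 0.26 to 0.48, and without WT replicate 3, where they were 0.26 to 0.45. Slc4a1 averaged 2.91 ± 1.70 in WT hearts and 3.36 ± 1.06 in KO hearts (SD, n = 3 each). With reads of the copies pooled, the alpha pair differed by −0.97 in the lung (exact two-sided permutation test, p = 0.6) and by −0.28 in the heart (p = 0.8, exact permutation), and the beta pair by −1.06 (exact permutation p = 0.5) and −0.28 (exact permutation p = 0.8). With 3 mice against 3 these tests cannot give a p below 0.10. An interval that spans 0 does not show equal blood content in the 2 genotypes, and differences of more than 2-fold in either direction lie inside it for each tested gene but Slc4a1 in the lung, whose interval ended at 0.98.

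**Figure D3:**
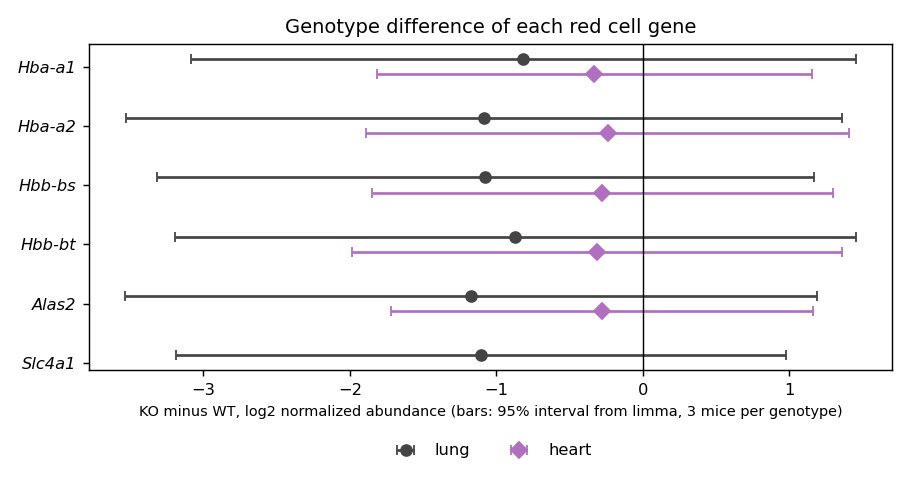
Difference of KO from WT on the log2 scale for each gene, with lung in dark grey and heart in purple, and bars for the 95% interval from limma (3 mice per genotype). All intervals cross 0, from −3.53 to 1.46 in the lung and from −1.99 to 1.41 in the heart, and Slc4a1 was not tested in the heart.

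The spread of these genes between mice of 1 genotype was wide. The SD within genotype groups of the lung was between 1.76 and 1.93 for the 4 haemoglobin genes and 1.85 for Alas2, beside a median of 0.25 over the 12882 genes with a mean of at least 6 in the lung. That put each of the 5 at or above the 99.7th percentile of these genes. In the heart the SDs were 1.17 to 1.33 and 1.13, beside a median of 0.21 over 11819 genes, at or above the 99.3rd percentile. Slc4a1, with a mean under 6, had an SD of 1.56 in the lung, at the 98.3rd percentile of all 16551 genes tested there.

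**Figure D4:**
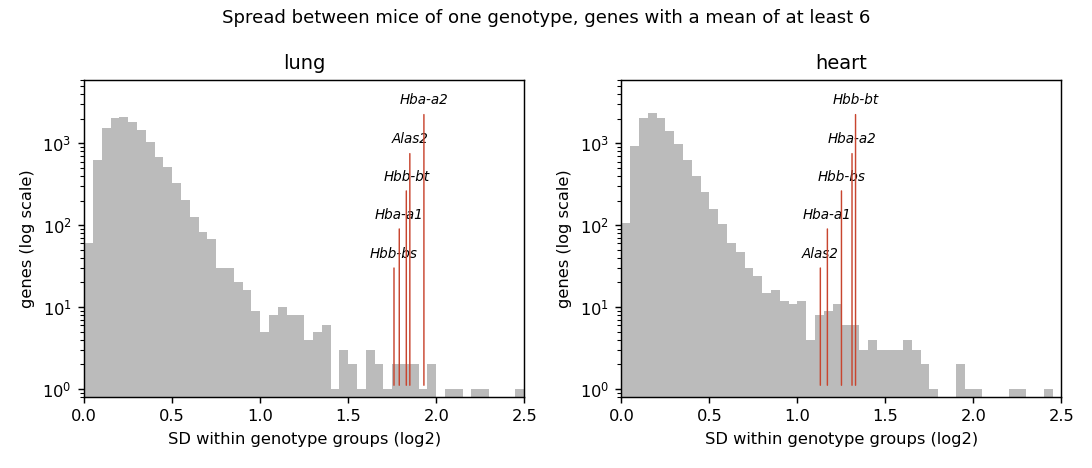
Number of genes (log scale) by their SD within genotype groups (log2), for genes with a mean of at least 6 in the lung (left) and heart (right), with the 4 haemoglobin genes and Alas2 marked by red lines. Lung SDs run from 1.76 to 1.93 and heart SDs from 1.13 to 1.33, in the far right tail of both distributions.

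The high mouse of each genotype can also be told from its identifier. WT replicates 1 and 2 share the first part of their identifiers, as do KO replicates 2 and 3, while WT replicate 3 and KO replicate 1 each have a prefix of their own, and the labels do not say what the prefix marks. The 2 mice with their own prefix were above both others of their genotype in both organs for all 6 genes. In the lung, WT replicate 3 was 1.25 to 1.83 above the higher of the other WT mice and KO replicate 1 was 3.04 to 4.22 above the higher of the other KO mice. In the heart the gaps were 1.49 to 2.64 and 0.93 to 1.5. Among 17666 genes tested over both tissues, 203 (1.15%) had this order in both genotypes and both tissues. No prefix holds both genotypes, so a difference between genotypes cannot be told apart from one between prefixes. Within a genotype, the prefix that stands alone belongs to 1 mouse, so that prefix and that mouse cannot be told apart.

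Since the lung and heart of a mouse share its blood, the next question was whether a mouse high in 1 organ was high in the other. Over the 6 mice, the Pearson correlation of the lung value with the heart value was 0.836 for Hba-a1, 0.794 for Hba-a2, 0.829 for Hbb-bs, 0.837 for Hbb-bt and 0.883 for Alas2, with unadjusted p-values of 0.0472, 0.0556, 0.0431, 0.0417 and 0.0361 by exact permutation of the 720 pairings. Spearman's rho was 0.714, 0.600, 0.714, 0.714 and 0.771, with exact permutation p-values of 0.136, 0.242, 0.136, 0.136 and 0.103. None of the 5 held after Benjamini-Hochberg adjustment over 14330 genes (adjusted exact permutation p from 0.868 to 0.892 for r and from 0.987 to 1.0 for rho), and no gene of the table did (0%). The smallest p these pairings allow is 0.00139, and 5.47% of all genes had an unadjusted p under 0.05. The r values of the 5 genes lay between the 96.7th and 98.8th percentile of all genes, whose median was −0.063. Without the 2 mice farthest from the lung median, which narrows the range, r over the remaining 4 was 0.169 for Hba-a2 (KO replicate 1 and WT replicate 3 left out) and between 0.592 and 0.754 for the other 4 genes (KO replicates 1 and 2 left out). Measured as deviations from the genotype mean, r was 0.807 to 0.899. Slc4a1 was not tested.

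All 6 genes had a higher mean in the lung, by a margin within the spread between mice for most of them. The mean difference over the mice was 0.48 ± 0.97 (SD, n = 6) for Hba-a1, 0.46 ± 1.14 for Hba-a2, 0.69 ± 0.98 for Hbb-bs, 0.75 ± 0.96 for Hbb-bt, 0.52 ± 1.0 for Alas2 and 1.55 ± 1.1 for Slc4a1. For Hbb-bs the lung of WT replicates 1, 2 and 3 was above the heart by 0.77, 1.54 and 0.95, and that of KO replicates 1 and 2 by 1.70 and 0.07, but the lung of KO replicate 3 was 0.91 below its heart. The lung was the higher organ in 4 mice for Hba-a1 and Alas2, in 5 for Hba-a2, Hbb-bs and Hbb-bt and in 6 for Slc4a1. Without KO replicate 1 the differences were 0.06 to 0.41 for the 4 haemoglobin genes and Alas2 and 1.29 for Slc4a1, and without KO replicate 3 they were 0.72 to 1.07 and 1.67. In the model of 4 group means over 12 libraries, none of the 6 passed the thresholds (adjusted p from 0.0671 to 0.599 from limma), although 51.3% of 17666 genes did, 30.1% as higher and 21.2% as lower in the lung, and none had an unadjusted p under 0.05 there or a call with limma-voom. With the mouse as a block, which takes out the differences between mice, the standard errors were between 0.293 and 0.338, and Hbb-bt passed at a log2 difference of 0.75 (adjusted p = 0.0454 from limma, 51.4% of genes called). Hbb-bs then had 0.69 (95% interval 0.02 to 1.36, adjusted p = 0.0593 from limma). Slc4a1 had an adjusted p of 0.00247 from limma in that fit, but its maximum group mean of 5.23 is under the threshold of 6. The median gene was itself 0.31 higher in the lung on this scale, and with CPM values, which are counts scaled to each library's total, it was 0.62. On the CPM scale, with a pseudocount of 1, the differences were 1.0 to 1.27 for the 4 haemoglobin genes and Alas2 (adjusted p from 0.111 to 0.224 from limma) and 0.83 for Slc4a1 (adjusted p = 0.0295 from limma), a gene whose level there is close to the pseudocount.

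Whether the genotype difference itself differed between the organs was tested as an interaction. The difference of the lung from the heart in KO minus WT was between −1.55 for Slc4a1 and −0.49 for Hba-a1, with adjusted p-values from 0.791 to 0.946 (limma), and 1 of 17666 genes passed (0.00566%). None of the 6 had an unadjusted p under 0.05 and limma-voom called none, and with the mouse as a block adjusted p-values were 0.636 to 0.86 from limma, with 0.0113% of genes called. In that blocked fit Slc4a1 alone of the 6 had an unadjusted p under 0.05 (95% interval −3.06 to −0.04, adjusted p = 0.636 from limma).

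The 4 haemoglobin genes and Alas2 were almost proportional to one another, and Slc4a1 less closely. After each tissue's mean was subtracted, the correlation over the 12 libraries of Hba-a1, Hba-a2, Hbb-bs, Hbb-bt and Alas2 with the log2 of the summed haemoglobin genes was at least 0.991, with slopes from 0.96 to 1.05, and for Slc4a1 it was 0.937 with a slope of 0.92. Alas2 and Slc4a1 are not part of that sum. These correlations, and those that follow, are a description over 12 libraries from 6 mice that share library composition. The 10 other genes most like the haemoglobin sum, among 11245 genes with a group mean of at least 6 in both tissues, were Ube2l6 (r = 0.93), Trp53rka (0.88), Pcdh12 (0.86), Fgfrl1 (0.84), Rsad2 (0.84), Trp53i13 (0.83), Acad12, Igsf3 and Exoc8 (0.81 each) and Mylk3 (0.80). The median over all these genes was 0.048, and 0.685% reached 0.7. Ube2l6, a conjugating enzyme for ubiquitin and the ubiquitin-like protein ISG15, listed here among genes of red cell maturation, was 8.42, 8.35 and 9.36 in WT lungs and 9.42, 8.19 and 7.88 in KO lungs. In the hearts it was 7.70, 7.30 and 7.91 in WT and 8.02, 7.23 and 7.6 in KO. Its slope of 0.32 against the haemoglobin sum was well under that of Alas2, and the slopes of the other 9 were between 0.07 and 0.43.

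Genes of red cell cytosol and maturation, 22 in the list, had a median r of 0.35 with the haemoglobin sum over the 21 listed above 0 in at least 6 libraries. Ube2l6, Rsad2 and Tent5c (0.80) were among those at 0.7 or more. Tent5c, a poly(A) polymerase gene, was 10.34, 10.71 and 11.31 in WT lungs and 11.21, 10.52 and 10.24 in KO lungs, with a slope of 0.35. Every lung was above every heart, where Tent5c was between 7.05 and 8.99. The most abundant listed membrane genes by the mean over the 12 libraries, the measure used for all lists here, were Aqp1, Epb41 and Tmod1, with r values of −0.42, 0.01 and −0.34. For cytosol and maturation the most abundant were Cat, Prdx2 and Bnip3l (−0.08, 0.35 and −0.37). Sptb and Ank1, further members of the red cell skeleton, were lower in the lung than in the heart, with log2 differences of −5.77 and −6.90 (adjusted p = 1.74e-11 and 7.9e-13 from limma), as was Tmod1 at −3.12 (adjusted p = 3.23e-08 from limma). Beside 30.1% of all genes called higher and 21.2% called lower in the lung, of 16 membrane genes tested between the tissues 3 were higher in the lung and 7 in the heart, with a median of −0.47, and of 18 genes of cytosol and maturation 7 and 3, with a median of 0.54.

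Among 12 further genes of haem synthesis, none had an r of 0.7 or more, and the median was 0.31. Alas1, the form of the first enzyme used outside red cells, was 12.51 to 13.33 in the lungs and 12.29 to 12.84 in the hearts, with an r of −0.35. Of the 12 genes 10 were higher in the heart and none in the lung, beside 21.2% and 30.1% of all genes tested, with a median log2 difference of −1.16, in contrast to Alas2, which was not called. Fech, the ferrochelatase that puts iron into the haem ring, was among them at −1.82 (adjusted p = 1.39e-08 from limma), as was Alad, which joins 2 aminolevulinate molecules, at −0.79 (adjusted p = 0.00013 from limma). In iron uptake and export, 2 of 11 genes tested were higher in the lung and 2 in the heart, beside the same shares of all genes, none reached an r of 0.7, and the ferritin genes Ftl1 and Fth1 and the transferrin receptor gene Tfrc had r values of 0.27, 0.12 and 0.05. Of 9 erythroid regulators tested, 2 were higher in the lung and 3 in the heart, beside 30.1% and 21.2% of all genes. The most abundant were Foxo3, Tmcc2 and Ldb1, with r values of −0.22, 0.58 and 0.07. Gata1, which drives red cell and platelet lineages, was at 3.8 or less in every library and listed at 0 in 5 of the 6 hearts, and Klf1 was at 3.23 or less.

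The embryonic globins Hba-x, Hbb-y and Hbb-bh1 were listed above 0 only in the lung of WT replicate 1, at 3.11, 7 and 7 estimated counts. Hbb-bh0 and Hbb-bh2 were listed at 0 in all 12 libraries, and Hbq1a and Hbq1b had at most 16.97 and 7.91 estimated counts, both in the lung of WT replicate 3. None of these reached the filter. Myoglobin (Mb), the oxygen-binding globin of muscle, was 17.60 to 18.22 in the hearts and 9.42 to 9.99 in the lungs, and with an r of 0.48 it ranged by less than 1 log2 unit in each tissue. Cygb and the reductase gene Cyb5r3, next in abundance in that list of 6, had r values of 0.20 and −0.39, and 1 of the 6 was higher in the lung and 3 in the heart, beside 30.1% and 21.2% of all genes. Of 10 genes for the clearance of free haemoglobin and haem, 4 were higher in the lung and 2 in the heart, which is near the shares of all genes (30.1% and 21.2%). Hp, haptoglobin, which binds free haemoglobin, was 13.42 to 13.94 in the lungs and 6.93 to 9.67 in the hearts, with an r of 0.10, and Lrp1 and Slc48a1 had −0.08 and −0.27. In the genotype comparison of either tissue, none of the further listed genes passed the thresholds with limma. In the lung, 1 of 12 haem synthesis genes, 1 of 11 iron genes and 1 of 10 clearance genes had an unadjusted p under 0.05, and none of the 15 membrane, 18 cytosol and 9 regulator genes tested did, beside 981 of all 16551 genes. Of the 10 lung epithelial markers 4 had one in the lung (Sftpc −0.67, Hopx −0.63, Sftpd −0.43 and Scgb1a1 0.64, adjusted p from 0.806 to 0.82 from limma), as did 1 of 11 neutrophil and 1 of 10 heart muscle markers and none of 9 platelet and 10 endothelial markers. In the heart, 3 of 16 membrane genes and 1 of 8 regulators had one, as did 1 of 10 heart muscle and 1 of 10 endothelial markers, and none in the other lists did, beside 1141 of all 15303 genes.

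Markers of other blood and tissue cells were followed beside the haemoglobin genes, and the 3 genes named for each list have its highest means over lung and heart together, which need not be the top 3 of either organ. The summed neutrophil list (14 genes, among them Lcn2, Csf3r and Mmp9) was 11.72 to 11.87 in WT lungs, 11.85 to 12.28 in KO lungs, 6.46 to 7 in WT hearts and 6.95 to 7.34 in KO hearts, with an r of −0.45 against the haemoglobin sum. The summed platelet list (14 genes, among them Itgb3, Pf4 and Alox12) was 9.91 to 10.24 and 9.65 to 10.03 in WT and KO lungs and 8.46 to 9.15 and 8.80 to 9.0 in WT and KO hearts, with an r of 0.65. Of its genes only Itga2b reached 0.7 (0.70), and Gp5 was listed at 0 in 7 libraries. Lung epithelial markers (10 genes, among them Scgb1a1, Abca3 and Hopx) summed to 19.00 to 19.28 in lungs of both genotypes, to 12.82 to 13.18 in WT hearts and to 13.01 to 13.41 in KO hearts, with an r of 0.19. Heart muscle markers (10 genes, among them Myh6, Actc1 and Ryr2) summed to 21.03 to 21.26 in the hearts, to 14.10 to 14.92 in WT lungs and to 13.67 to 14.16 in KO lungs, with an r of 0.69. Within the lungs, the heart muscle sum was lowest in KO replicates 2 and 3 (13.70 and 13.67), as for the haemoglobin genes. It was highest in WT replicate 3 (14.92), while KO replicate 1 (14.16), the highest lung for the haemoglobin genes, was below WT replicate 1 (14.32). Myh6 was 14.24 in that WT lung and reached an r of 0.73. Endothelial markers (10 genes, among them Pecam1, Vwf and Kdr) summed to 16.12 to 16.33 in the lungs and to 14.78 to 14.92 in the hearts, with an r of 0.31. The part of platelets and of heart muscle in the lung samples in the haemoglobin values was not tested.

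**Figure D5:**
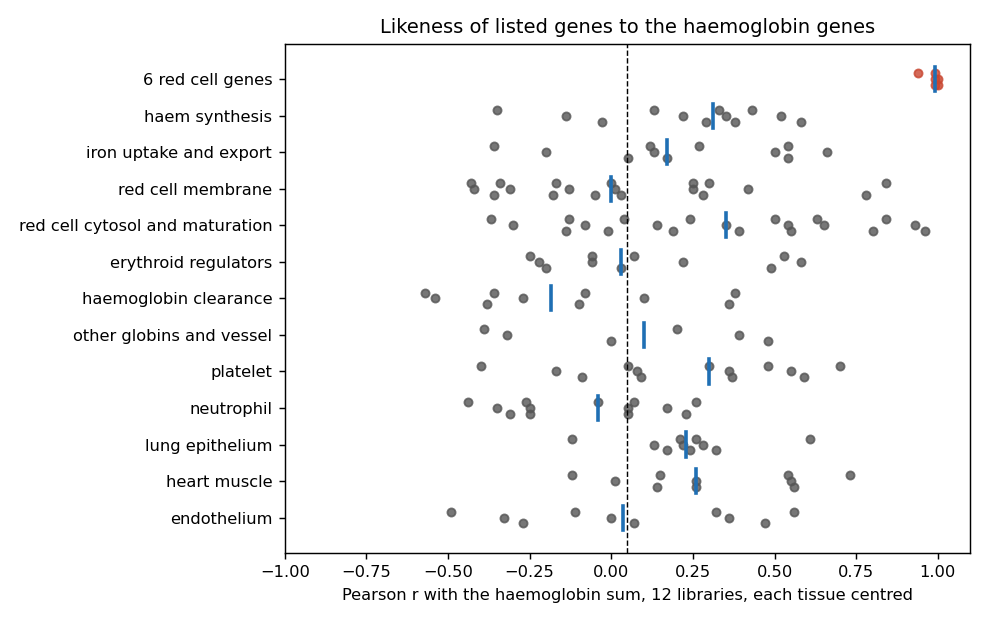
Pearson r of each listed gene with the summed haemoglobin genes over 12 libraries after centring each tissue, 1 row for each list, with genes as points, the list's median as a blue bar and the median of 11245 genes (0.048) as a dashed line. The 6 red cell genes lie at 0.94 to 1.0, and among the genes of cytosol and maturation Ube2l6 lies at 0.93 and Tent5c at 0.80.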

How the data were processed

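Total RNA libraries of whole lung and heart were trimmed with cutadapt, and reads were aligned with STAR to mm39 and quantified with Salmon, per the labels and the study's methods. The authors deposited log2 gene values and log2 transcript values. Transcript values are log2 of 1 + the estimated count as deposited, and gene values carry in addition a constant for each library (−0.628 to 0.796), which was recovered by comparing the tables. Genes with at least 10 estimated counts (a log2 value of 3.46) in at least 3 libraries were tested with limma 3.58.1 (R 4.3.3, variance trend), with Benjamini-Hochberg adjustment over all genes tested. A call needed an adjusted p under 0.05, a fold of 1.5 and a group mean of 6 in the higher group, and for the interaction the adjusted p alone. limma-voom, CPM, CPM of the total without Rn7s1, mitochondrial and haemoglobin genes, no filter, a filter in every library, a pseudocount of 10, summed transcripts, no trend, all libraries in 1 fit, each mouse left out in turn and the mouse as a block were tried. Scripts were tested on simulated data.

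Lung and heart libraries of 1 mouse were paired by the mouse identifier in the labels. Permutation tests, ratios, correlations and sequence matches used Python 3.11.15, numpy 2.4.6, scipy 1.17.1, pandas 2.3.3 and biopython 1.88. The precision of low values is limited by their counts, and 3 estimated counts were taken as the floor. The genes, the gene lists and the tests were chosen with earlier results of these data known. By rule, the text names the 6 genes, the 10 other genes with the highest correlation with the haemoglobin sum, listed genes called in a genotype comparison (there were none) and the 3 most abundant genes of each list. Tent5c, Itga2b, Sftpc, Sftpd, Gp5, Sptb, Ank1, Gata1, Klf1 and the further embryonic and theta globins were named after their values were seen. Some listed genes are not reported here. Mice of 1 group are separate animals. All deposited value columns were mapped to samples.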

Additional observations from a re-analysis of the deposited data

How the results depend on the processing

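The number of the 6 genes past the thresholds was 0 in both genotype comparisons and in the interaction under all alternatives run, and in the comparison of lung with heart under all but the replicate block, where it was 1 (Hbb-bt). Over the fits that left out 1 mouse, the log2 fold change of KO against WT in the lung ran from −2.19 to 0.06 for Hba-a1, with the sign turned without KO replicate 2. In the heart, it ran from −0.92 to 0.34 for Hba-a1, from −0.86 to 0.47 for Hba-a2, from −0.87 to 0.45 for Hbb-bs, from −0.97 to 0.48 for Hbb-bt and from −0.87 to 0.35 for Alas2, with the sign turned for all 5 without KO replicate 2 and without WT replicate 3. The interaction ran from −1.27 to 0.09 for Hba-a1 and from −1.25 to 0.07 for Hbb-bt, turned without KO replicate 3. Slc4a1 in the heart, which reached the filter only in some alternatives, was lower in KO without WT replicate 2 and higher in the other 4 in which it was tested, with no call. The remaining single-gene values kept their sign and were not called. For Slc4a1 in lung against heart (adjusted p = 0.0671 from limma), it was the group mean that kept it from a call with the block (0.00247), CPM (0.0295), CPM of the reduced total (0.0233) and without WT replicate 3 (0.0391), and the adjusted p was 0.0678 to 0.148 in the other fits. Over all genes, a filter in every library left 1 call in the lung (against 11) and 7 in the heart (against 13), where fewer genes were tested, and leaving out KO replicate 2 gave 21 in the heart. The interaction had 0 to 9 calls with a mouse left out, 5 with CPM, 4 without the trend or with a pseudocount of 10, and 2 with the block, against 1; the cause was not tested. With CPM the median of all genes was 0.248 in the lung comparison of genotypes and 0.178 in the interaction. Estimated counts of 0.9 to 24.1 limit what can be said of Slc4a1 in the heart.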
